A study of Homo sapiens with 12 samples.

Results

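The HOX genes encode homeodomain transcription factors and lie in 4 clusters, HOXA, HOXB, HOXC and HOXD. Their 39 coding members were taken from the deposited gene table by symbol, as HOXA, HOXB, HOXC or HOXD followed by a number alone, out of 58174 gene entries. They comprise 11 HOXA, 10 HOXB, 9 HOXC and 9 HOXD genes. The RNA came from H520, a human cell line established from a squamous cell carcinoma of the lung, in 12 libraries. Each of 4 conditions had 3: control cells, cells given BLU9931 at 1 µM, cells given palbociclib at 1 µM, and cells given both drugs at those doses, with drug exposure for 72 h. BLU9931 is a covalent inhibitor of the receptor kinase FGFR4, and palbociclib inhibits the cell cycle kinases CDK4 and CDK6. What the control cells received is not stated, and neither is whether the 3 libraries of a group were separate cultures, so the p-values measure the spread between libraries, which may be technical. The single line is the only model, and no HOX gene was itself targeted.

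In the embryo, HOX genes are switched on in the order in which they lie on the chromosome, low-numbered genes first and toward the head, high-numbered genes later and toward the tail, and the combination marks position along the body axis. Polycomb proteins keep the clusters silent and trithorax proteins keep them active, retinoic acid induces the low-numbered genes, and PBX and MEIS proteins bind DNA together with HOX proteins. In the lung, genes from HOXA and HOXB are known from the mesenchyme of the developing airway, and many tumours of adult tissue express HOX genes from several clusters.

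Library totals ran from 21.7 M to 35.8 M counts (M, mega). A count of 3 corresponded to 0.0838 to 0.138 CPM, here counts relative to the unscaled library total. The CPM of genes given below are relative to a scaled library total. Control 1 and palbociclib 3 stood apart from the other 10 libraries on the second principal component, and there a gene's difference from the same gene in its group mates followed GC content (Spearman's rho across genes -0.667 and -0.735). Where a count of HOX genes moves without both libraries, that count is given beside it. Of 9 squamous lineage markers, 5 exceeded 1 TPM in any library; SOX2 was high (342 to 443 TPM), while TP63 did not exceed 0.165 TPM and KRT14, DSG3 and PKP1 were at or near 0. Of 6 leukocyte markers, 2 exceeded 1 TPM in any library, CD14 (up to 1.49 TPM) and LYZ (up to 3.50 TPM), while TYROBP was at 0 and PTPRC at most 0.0237 TPM. In bulk RNA of this kind, a smaller share of cells that express a gene and less RNA per cell cannot be told apart.

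All 4 clusters were expressed in control cells, HOXC most and HOXB least. Levels are compared between genes on the deposited TPM scale (abundance scaled by gene length to a fixed total). In control, the summed level was 119 ± 7.05 TPM for HOXC (SD, n = 3), 85.8 ± 2.09 TPM for HOXA, 75.3 ± 10.1 TPM for HOXD and 34.2 ± 2.86 TPM for HOXB. The HOXA and HOXD sums overlapped between libraries, and the HOXB sum was below all the others in each control library. A mean of at least 1 TPM was reached by 28 of the 39 members in control: 9 of 9 in HOXC, 9 of 11 in HOXA, 5 of 9 in HOXD and 5 of 10 in HOXB. At least 10 TPM was reached by 10 members. The genes numbered 9 to 13, called posterior, held 63.9 ± 3.07% of the HOX TPM in control, the genes numbered 4 to 8 held 23.4 ± 2.20% and the genes numbered 1 to 3 held 12.7 ± 2.39%.

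**Figure D1:**
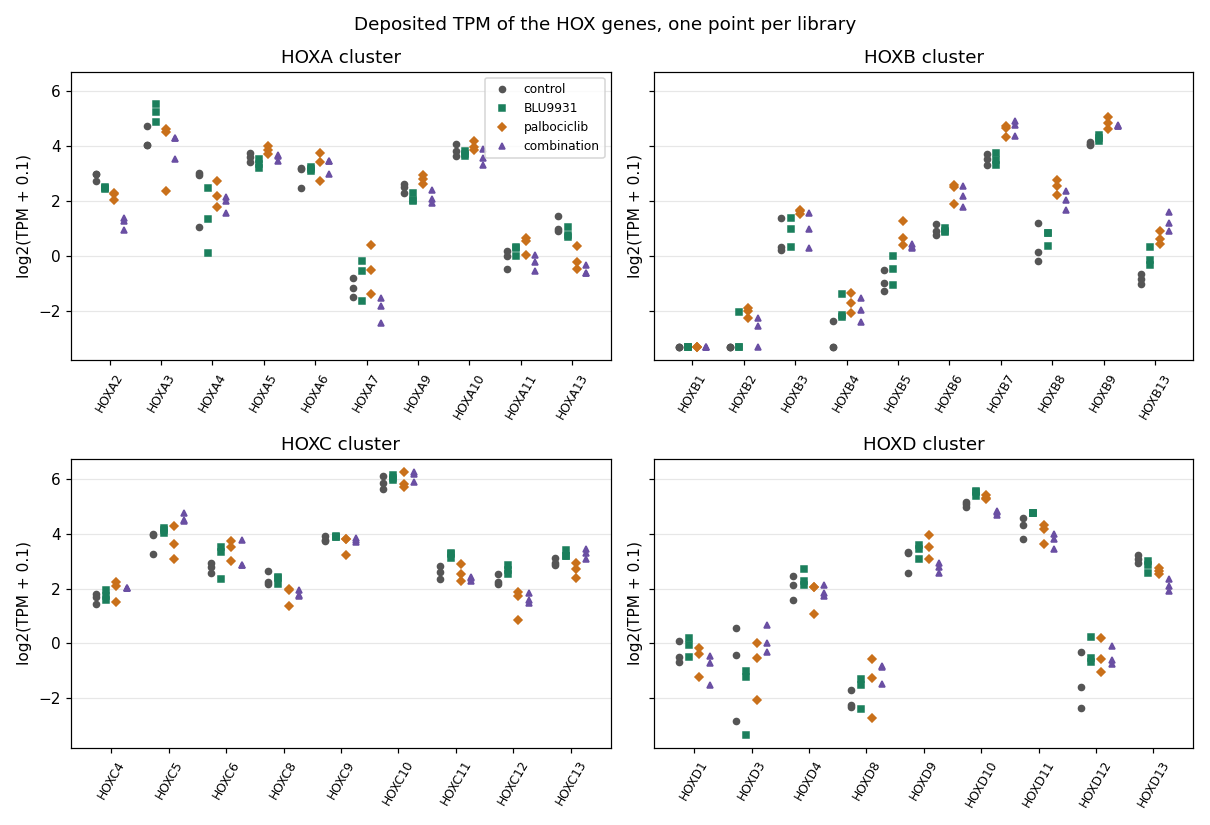
Level of the HOX genes shown as log2(TPM + 0.1), one point per library, with a panel for each cluster and the 4 groups marked by shape and colour. HOXC10 and HOXD10 sit highest, HOXB1 lies at the floor in every library, and the palbociclib and combination points lie above control for HOXB5 to HOXB9 and HOXB13.

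HOXC10, which patterns the lumbar spinal cord and hindlimb, had the highest mean over the 12 libraries (63.3 TPM), and 86.8% of protein-coding genes lay below its control level. It was at 68.6, 49.4 and 57.3 TPM in the control libraries, 70.3, 61.6 and 64.7 TPM with BLU9931, 51.2, 75.1 and 55.8 TPM with palbociclib and 74.8, 59.3 and 72.0 TPM with both drugs. The 4 groups overlapped in TPM. In CPM the BLU9931 libraries (48.4 to 52.9) lay above and the palbociclib libraries (30.8 to 39.4) below control (39.9 to 45.0), the transcript length implied for the gene differed up to 1.62-fold between libraries, and no comparison called HOXC10 in the edgeR fit. HOXD10, another lumbar and hindlimb gene, came next with 33.3, 31.0 and 35.7 TPM in control. It was followed by HOXA3, a gene of the pharyngeal arches, thymus and parathyroid, and by HOXB9, HOXD11 and HOXB7. HOXA3 was at 16.5, 26.3 and 16.6 TPM in control and 29.8, 46.6 and 38.3 TPM with BLU9931. It was at 23.0, 24.6 and 5.13 TPM with palbociclib and 11.4, 19.5 and 19.4 TPM with both drugs. Its value is uncertain, because its span covers HOXA4, HOXA5 and HOXA6, and the transcript length that count and FPKM values imply for it differed up to 3.01-fold between libraries.

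At the low end, HOXB1, a hindbrain gene, had 0 counts in all 12 libraries. HOXB2, its neighbour, had between 0 and 4 counts in a library, and these were the only members that did not pass the filter on low counts. HOXB4, HOXD8, HOXA7, HOXD12, HOXD3, HOXD1, HOXB5 and HOXA11 passed it with means under 1 TPM over the 12 libraries. On GRCh38, HOXA lies on chromosome 7, and the other clusters run from 48528526 to 48729178 on chromosome 17 (HOXB), from 53938765 to 54056030 on chromosome 12 (HOXC) and from 176092891 to 176190907 on chromosome 2 (HOXD). The spans of 33 members overlap another gene and those of 22 overlap another HOX gene, and since the use of strand and the counting mode are not given, reads in shared stretches cannot be assigned with certainty. HOXA2, HOXB1, HOXB13, HOXC12, HOXD12 and HOXD13 overlap no other gene.

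Palbociclib was compared with control to describe what this drug does alone. Most tested HOXB genes rose, and the genes called in the other 3 clusters all fell. Of the 37 tested HOX genes, 6 rose and 5 fell (edgeR's quasi-likelihood test, Benjamini-Hochberg adjusted p under 0.05). Over all 20612 genes tested, 20.6% were called, with 10% higher and 10.5% lower. The 6 that rose are HOXB5, HOXB6, HOXB7, HOXB8, HOXB9 and HOXB13, of 8 HOXB genes tested, with a median log2 change of 1.59 in the cluster. The 29 genes of HOXA, HOXC and HOXD had a median of -0.10 with 0 rises and 5 falls, and all genes tested had a median of 0.012. The count of rises was 6 or 7 in every fit that left out 1 library. The count of falls was 2 without control 3 (15.8% of all genes called). It was 3 without control 2 (15.5%), BLU9931 3 (17.4%), palbociclib 2 (14%) or palbociclib 3 (26.8%), and 4 or 5 otherwise (14.6% to 18.5%). A fit of only the groups compared called the 6 rises and 0 falls (9.48% of all genes called). Without control 1 and palbociclib 3 together 6 rose and 4 fell (28.6% of all genes called), and with library totals in place of TMM 7 rose and 3 fell (20.7%). The HOXB share of the HOX TPM was 10.9 ± 0.504% in control, 10.3 ± 0.407% with BLU9931, 19.2 ± 0.444% with palbociclib and 19.6 ± 1.3% with both drugs, and the palbociclib and combination libraries (18.1 to 20.5%) lay above the control and BLU9931 libraries (9.87 to 11.2%) without overlap.

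**Figure D2:**
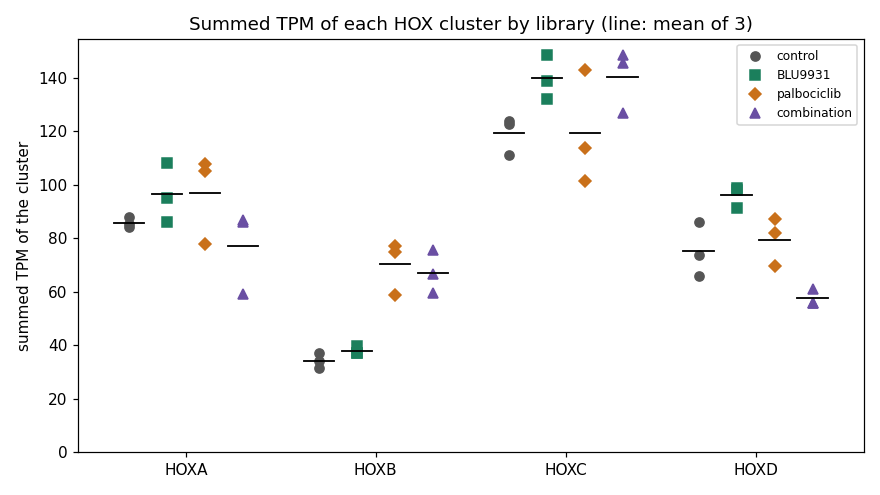
Summed TPM of the members of each HOX cluster, one point per library, with a line at the mean of the 3 libraries of a group. HOXB lies between 31.4 and 39.9 TPM in the control and BLU9931 libraries and between 58.7 and 76.9 TPM in the palbociclib and combination libraries, while HOXD is lowest with both drugs (55.7 to 61.0 TPM).

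HOXB9 (ENSG00000170689, chromosome 17, 48621159 to 48626356), a gene of thoracic identity, is the most abundant HOXB gene. It held 23.8, 25 and 23.7 CPM in the control libraries, 29.6, 27.5 and 25.3 CPM with BLU9931, 39.5, 44.1 and 34.4 CPM with palbociclib and 36.3, 35.8 and 38.0 CPM with both drugs. All 6 libraries with palbociclib, alone or combined, lay above all 6 without it. The log2 change was 0.70 ± 0.12 (SE, adjusted p = 0.00169) with palbociclib and 0.60 ± 0.12 (adjusted p = 0.00245) with both drugs.

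HOXB7 (ENSG00000260027, 48607227 to 48633572), which is expressed in the developing kidney ducts among other sites, showed the same separation of libraries. It was at 7.33, 8.79 and 9.32 CPM in control, 9.85, 7.37 and 8.43 CPM with BLU9931, 19.3, 17.1 and 14.8 CPM with palbociclib and 19.0, 14.4 and 21.4 CPM with both. It rose by 1.01 ± 0.18 (log2, adjusted p = 0.00274) with palbociclib and by 1.11 ± 0.18 (adjusted p = 0.000844) with both drugs. Its span covers HOXB8 and HOXB9, so its reads may include some of theirs.

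HOXB8 (ENSG00000120068, 48611377 to 48614939), known for its action in blood cell progenitors, had the largest fitted rise of the 6 with palbociclib. The control libraries held 0.819, 1.04 and 1.47 CPM and the BLU9931 libraries 1.19, 0.577 and 1.55 CPM, against 5, 4.29 and 3.76 CPM with palbociclib. The rise was 1.96 ± 0.45 (log2, adjusted p = 0.00987). With both drugs the libraries were at 3.13, 1.14 and 4.19 CPM, and the 1.14 CPM of combination 2 lay inside the control range. In TPM, combination 2 was at 3.11, above the control libraries (0.791, 0.996 and 2.20 TPM), so this overlap depends on the scale. The rise with both drugs (1.33 ± 0.45, adjusted p = 0.0413) lost its call without control 1, control 2, BLU9931 1, palbociclib 1, palbociclib 2, combination 1 or combination 3 (adjusted p up to 0.201), without control 1 and palbociclib 3 together (0.131), with no filter (0.0553) and in a fit of only the groups compared (0.0692). The transcript length implied for HOXB8 varied up to 2.98-fold between libraries.

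HOXB6 (ENSG00000108511, 48595751 to 48604992) was at 1.3, 1.56 and 1.02 CPM in control, 1.19, 1.39 and 1.43 CPM with BLU9931, 4.23, 4.92 and 2.42 CPM with palbociclib and 3.63, 2.56 and 3.83 CPM with both. Every library with palbociclib lay above every library without it. The log2 rises were 1.58 ± 0.28 (adjusted p = 0.00234) with palbociclib and 1.37 ± 0.28 (adjusted p = 0.00326) with both drugs. HOXB5 (ENSG00000120075, 48591257 to 48593961), a gene of the mesenchyme around the developing airway, was lower throughout, at 0.372, 0.484 and 0.680 CPM in control and 0.467, 1.02 and 0.696 CPM with BLU9931. It reached 2.55, 1.57 and 1.33 CPM with palbociclib and 1.27, 1.35 and 1.28 CPM with both drugs, again without overlap. It rose by 1.81 ± 0.35 (adjusted p = 0.00364) with palbociclib and by 1.32 ± 0.35 (adjusted p = 0.0136) with both, and the second call ended without control 1 (adjusted p = 0.0522). HOXB5 and HOXB6 both overlap the span of HOXB3 and lie opposite HOXB-AS3.

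HOXB13 (ENSG00000159184, 48724763 to 48729178), a gene of the tail region and of the prostate, where it acts with the androgen receptor, lies 98.4 kb from the end of HOXB9. HOXB5 to HOXB9 lie within 35.1 kb. HOXB13 was at 1.04, 0.900 and 0.765 CPM in control and 1.53, 2.21 and 1.31 CPM with BLU9931. It rose to 2.68, 3.23 and 2.34 CPM with palbociclib and to 3.31, 4.02 and 5.53 CPM with both drugs. The groups did not overlap in this order, control, BLU9931, palbociclib and both. The log2 change was 1.61 ± 0.27 (adjusted p = 0.00164) with palbociclib and 2.25 ± 0.27 (adjusted p = 7.95e-05) with both drugs, and the combination against BLU9931 gave 1.34 ± 0.26 (adjusted p = 0.00244). The step from palbociclib to the combination (0.64 ± 0.25) and that from control to BLU9931 (0.91 ± 0.27) did not pass the test (adjusted p = 0.227 and 0.190).

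**Figure D3:**
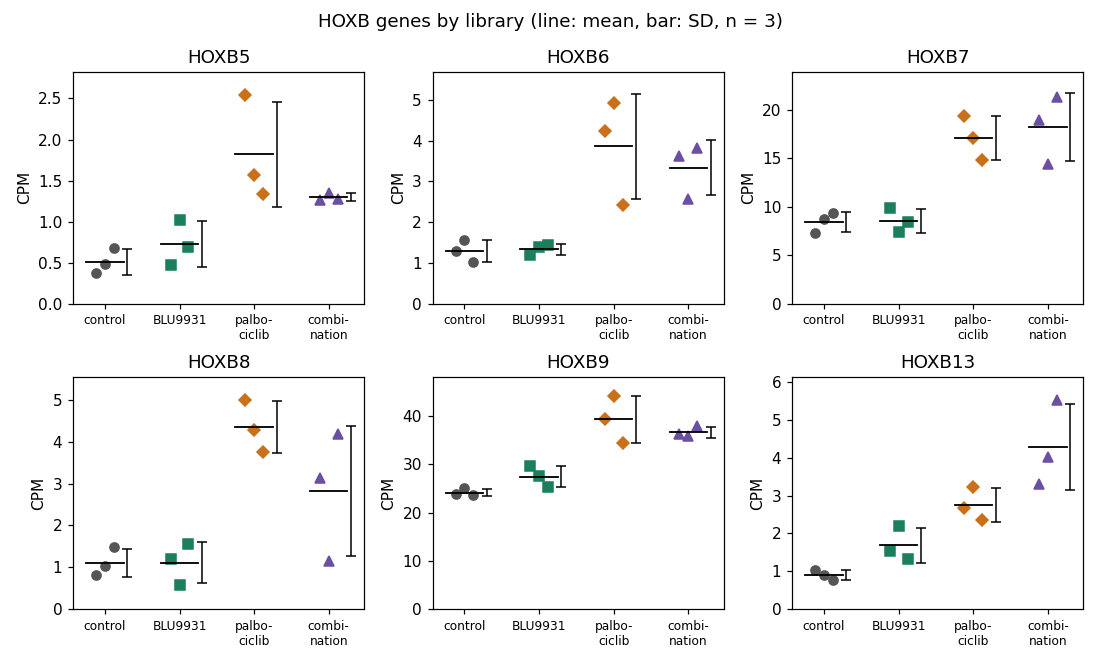
CPM of the 6 HOXB genes that rose with palbociclib, one point per library in 4 groups, with the mean of 3 libraries as a line and the SD as a bar; each axis starts at 0. The palbociclib points lie above all control and BLU9931 points in every panel, and combination 2 of HOXB8 (1.14 CPM) is the one combination point inside the control range.

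In each of these 6 genes palbociclib 3 was the lowest palbociclib library, and it is a library that stood apart. Without control 1 and palbociclib 3 together, the log2 rises with palbociclib were 1.79 for HOXB5, 1.81 for HOXB6, 0.99 for HOXB7, 1.86 for HOXB8, 0.76 for HOXB9 and 1.81 for HOXB13, and all 6 kept their call. They also kept it under each of the other alternatives run for that comparison. The remaining tested HOXB genes did not pass. HOXB3 was at 2.56 ± 0.588 CPM in control and 3.64 ± 0.585 CPM with palbociclib. HOXB4, which expands blood stem cells when overexpressed, had 0, 0.208 and 0 CPM in control and 0.604, 0.275 and 0.445 CPM with palbociclib (log2 2.66 ± 0.90, adjusted p = 0.0581), a fitted value that depends on the prior count.

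Markers of other cell types also differed in level between these groups. The summed TPM of 5 neuroendocrine markers was 16.9 to 20.8 in control, 25.1 to 28.5 with BLU9931, 20.1 to 28.5 with palbociclib and 33.2 to 41.3 with both drugs. Of these markers 3 exceeded 1 TPM in any library, INSM1 took most of the sum, and NEUROD1 did not exceed 0.0539 TPM. The summed TPM of 6 leukocyte markers was 1.15 to 1.75 in control, 1.41 to 1.99 with BLU9931, 2.64 to 2.96 with palbociclib and 3.63 to 4.20 with both drugs. LYZ had means of 0.297, 0.680, 2.01 and 3.35 TPM in that order, and CD14 means of 1.08, 0.846, 0.805 and 0.536 TPM. Their part in the HOX result was not tested.

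The 5 genes that fell with palbociclib were HOXA2, HOXA13, HOXC12 and HOXD13, which lie at or next to an end of their clusters, and HOXC8. Their sequences just upstream are shown for the members that the promoter table holds, HOXA2, HOXA13 and HOXD13, with HOXD10, which the combination lowered, because all 4 fell with both drugs. RefSeq's promoter table (GRCh38.p14) has entries for 20 of the 39 members. Each line gives the 250 bases before the RefSeq start on the gene's strand, 5′ to 3′, at chr7:27102684-27102933 (HOXA2, minus strand), chr7:27200092-27200341 (HOXA13, minus strand), chr2:176092471-176092720 (HOXD13, plus strand) and chr2:176116528-176116777 (HOXD10, plus strand). Capitals mark matches on either strand to CCAAT, to TATAAA or to TTTGAA; TTTCCCGC, TTTGGCGC and TTTATGG were also searched. The HOXD10 window lies inside the span that the deposited table gives the gene, and the HOXA2 and HOXA13 windows overlap the spans given for those genes, so the starts differ between annotations.
HOXA2: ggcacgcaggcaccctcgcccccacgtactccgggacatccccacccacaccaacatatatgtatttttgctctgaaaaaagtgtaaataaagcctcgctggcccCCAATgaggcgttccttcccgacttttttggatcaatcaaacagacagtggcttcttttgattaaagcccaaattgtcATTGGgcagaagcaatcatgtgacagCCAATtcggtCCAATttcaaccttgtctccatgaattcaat
HOXA13: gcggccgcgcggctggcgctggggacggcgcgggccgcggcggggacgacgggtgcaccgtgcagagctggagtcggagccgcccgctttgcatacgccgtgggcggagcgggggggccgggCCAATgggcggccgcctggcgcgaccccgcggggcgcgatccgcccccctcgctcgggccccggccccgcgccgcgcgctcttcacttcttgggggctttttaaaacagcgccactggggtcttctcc
HOXD13: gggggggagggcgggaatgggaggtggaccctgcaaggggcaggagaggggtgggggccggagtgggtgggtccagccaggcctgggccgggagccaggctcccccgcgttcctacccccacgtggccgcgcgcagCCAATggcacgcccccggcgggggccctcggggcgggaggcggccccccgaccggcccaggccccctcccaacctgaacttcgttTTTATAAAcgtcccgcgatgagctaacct
HOXD10: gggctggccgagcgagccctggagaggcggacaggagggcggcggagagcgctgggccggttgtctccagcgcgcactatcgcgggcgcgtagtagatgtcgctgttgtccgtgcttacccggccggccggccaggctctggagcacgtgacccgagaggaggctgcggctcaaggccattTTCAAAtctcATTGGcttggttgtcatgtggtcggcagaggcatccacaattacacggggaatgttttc
HOXA2 holds 4 CCAAT matches, and the others hold 1 each. HOXD13 has a pair of TATAAA matches that overlap on opposite strands, with first bases at -27 and -29 from the start, and HOXD10 has TTTGAA on the minus strand at -69, 10 bases from its CCAAT at -59. Of 35116 RefSeq promoter windows of the same length, 32% hold CCAAT, 10.7% TATAAA, 13.3% TTTGAA, 1.39% TTTCCCGC, 0.55% TTTGGCGC and 2.3% TTTATGG. The 4 windows share CCAAT alone among the motifs searched, and CCAAT does not set them apart from other HOX genes. Windows of HOXA6, HOXC4, HOXC5 and HOXD4, which were called lower in no comparison, also hold it. So does that of HOXB1, which had 0 counts, while those of HOXA11, HOXD8 and HOXD11 do not. Their GC content runs from 47.2% for HOXA2 and 64% for HOXD10 to 74% for HOXD13 and 78% for HOXA13, against a median of 58% over all windows.

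HOXA2 (ENSG00000105996, chromosome 7, 27100354 to 27102811), which sets the identity of the second pharyngeal arch and of the hindbrain, was lower in each group in turn. It was at 6.63, 7.96 and 7.93 CPM in control, 5.39, 5.43 and 5.57 CPM with BLU9931, 4.76, 3.86 and 4.69 CPM with palbociclib and 1.86, 2.63 and 2.32 CPM with both drugs. No group overlapped the next. The fall with palbociclib was -0.76 ± 0.16 (log2, adjusted p = 0.00663), that with both drugs -1.72 ± 0.17 (adjusted p = 1.73e-05), and the combination lay below palbociclib by -0.96 ± 0.17 (adjusted p = 0.00733) and below BLU9931 by -1.26 ± 0.17 (adjusted p = 0.000211). BLU9931 alone gave -0.46 ± 0.16, which did not pass (adjusted p = 0.230). In a fit of only the groups compared, the palbociclib fall (adjusted p = 0.0502) and the step from palbociclib to the combination (0.0853) lost their calls.

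HOXA13 (ENSG00000106031, chromosome 7, 27193503 to 27200106), a gene of the hand, foot and genital tract at the other end of the cluster, was at 7.45, 3.88 and 5.21 CPM in control and 4.20, 5.53 and 4.33 CPM with BLU9931. It was at 1.68, 1.97 and 3.27 CPM with palbociclib and 1.5, 1.32 and 1.51 CPM with both drugs. The palbociclib and combination libraries lay below all others. The falls were -1.26 ± 0.28 (log2, adjusted p = 0.00923; 0.0693 in a fit of only the groups compared) with palbociclib and -1.93 ± 0.29 (adjusted p = 0.000469) with both drugs. It was also lower with both drugs than with BLU9931 (-1.70 ± 0.30, adjusted p = 0.00134).

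HOXD13 (ENSG00000128714, chromosome 2, 176092891 to 176095938), the gene of the digits at the posterior end of HOXD, was at 11.5, 9.27 and 10.3 CPM in control, 8.62, 7.16 and 9.55 CPM with BLU9931, 7.31, 7.55 and 6.79 CPM with palbociclib and 4.35, 5.87 and 4.94 CPM with both drugs. The control libraries lay above the palbociclib libraries, and these above the combination libraries. The fall was -1.03 ± 0.16 (log2, adjusted p = 0.000575) with both drugs and -0.52 ± 0.16 (adjusted p = 0.0401) with palbociclib. The palbociclib call ended without control 1, control 3, BLU9931 1, BLU9931 3 or any 1 of the palbociclib libraries (adjusted p up to 0.114), and without control 1 and palbociclib 3 together (0.109). It also ended with library totals (0.0726), with limma on either TPM scale (0.0975 and 0.0881), with no filter (0.0874), with the replicate block (0.0834) and in a fit of only the groups compared (0.111). The combination was lower than BLU9931 by -0.74 ± 0.16 (adjusted p = 0.00586).

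HOXC12 (ENSG00000123407, chromosome 12, 53954834 to 53958956), a posterior gene next to HOXC13, was at 8.08, 8.62 and 10.3 CPM in control, 12.9, 10.4 and 11.2 CPM with BLU9931, 5.73, 6.14 and 3.07 CPM with palbociclib and 6.21, 4.73 and 5.14 CPM with both. The libraries with palbociclib lay below those without it. The falls were -0.85 ± 0.24 (log2, adjusted p = 0.0248) with palbociclib, lost without control 2 or control 3 (adjusted p up to 0.0870) and in a fit of only the groups compared (0.117), and -0.75 ± 0.23 (adjusted p = 0.0297) with both drugs, lost without control 2, control 3, combination 2 or combination 3 (up to 0.108), with library totals (0.0528) and with limma (up to 0.0661). Against BLU9931, the combination was lower by -1.10 ± 0.24 (adjusted p = 0.00487).

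HOXC8 (ENSG00000037965, chromosome 12, 54009106 to 54012362), which acts in motor neurons of the brachial spinal cord, lies in the span of HOXC6. It was at 4.62, 4.88 and 6.34 CPM in control, 5.43, 4.58 and 5.22 CPM with BLU9931, 3.89, 3.62 and 2.55 CPM with palbociclib and 3.81, 3.27 and 3.24 CPM with both drugs. The palbociclib and combination libraries lay below the others. The falls were -0.65 ± 0.19 (log2, adjusted p = 0.0336) and -0.62 ± 0.19 (adjusted p = 0.0289). The palbociclib call ended without control 2, control 3, BLU9931 3, palbociclib 2, palbociclib 3 or combination 2 (adjusted p up to 0.130), and that of the combination without control 3, combination 2 or combination 3 (up to 0.120). Both calls also ended with library totals (adjusted p = 0.0632 with palbociclib and 0.0572 with both drugs), limma (up to 0.0712 and 0.0685), no filter (0.0756 and 0.055) and the replicate block (0.0655 and 0.0542), and the palbociclib call in a fit of only the groups compared (0.146).

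**Figure D4:**
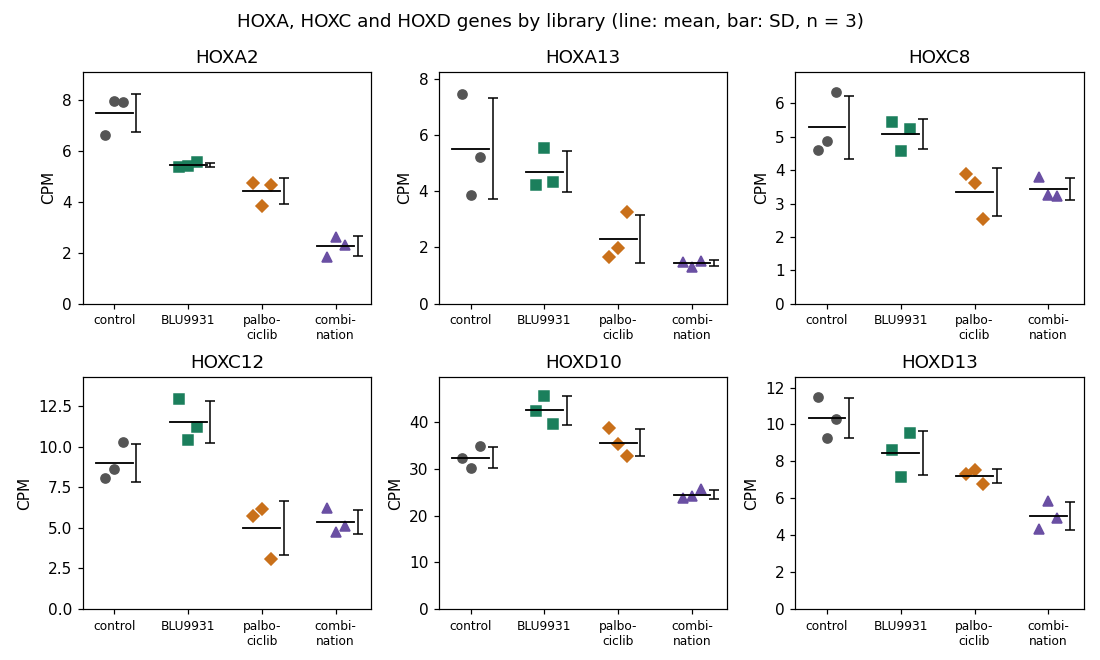
CPM of HOXA2, HOXA13, HOXC8, HOXC12, HOXD10 and HOXD13, one point per library in 4 groups, with the mean of 3 libraries as a line and the SD as a bar; each axis starts at 0. HOXA2 lies lower from group to group without overlap, and HOXD10 is highest with BLU9931 (39.5 to 45.6 CPM) and lowest with both drugs (23.7 to 25.6 CPM).

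The combination was compared with control to describe what both drugs do together. Of the 37 tested HOX genes, 7 rose and 6 fell, against 15.4% and 16.3% of all genes (31.7% in either direction). After a GC adjustment 7 rose and 10 fell, with 43.2% of all genes called. Without control 1 and palbociclib 3 together 6 rose and 9 fell (38.8% of all genes called). Without control 1 alone 4 rose and 7 fell (26.9%), and without control 3 alone 6 rose and 3 fell (26.7%). The same 6 HOXB genes rose, with a median of 1.32 over the cluster (log2), and the 29 other HOX genes had a median of -0.26 with 1 rise and 6 falls; the median of all genes was 0.032. The 2 comparisons share the control libraries. Besides HOXA2, HOXA13, HOXC8, HOXC12 and HOXD13, the falls included HOXD10. The rise outside HOXB was that of HOXC5.

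HOXC5 (ENSG00000172789, chromosome 12, 54032853 to 54035358), a gene of the neck and upper trunk whose span lies inside that of HOXC4, was at 9.49, 15.8 and 15.0 CPM in control, 18.2, 17.1 and 15.9 CPM with BLU9931, 11.8, 17.9 and 8 CPM with palbociclib and 21.1, 21.1 and 25.8 CPM with both. The combination libraries lay above all others, and the palbociclib libraries overlapped control. The rise was 0.75 ± 0.27 (log2, adjusted p = 0.0491). It ended in 10 of 12 fits that left out 1 library (adjusted p up to 0.171), with palbociclib 2 and palbociclib 3 the exceptions, and also with no filter (0.0752) and with the replicate block (0.059).

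HOXD10 (ENSG00000128710, chromosome 2, 176108790 to 176119942) was highest with BLU9931 alone and lowest with both drugs. It was at 32.3, 30.2 and 34.8 CPM in control, 42.4, 45.6 and 39.5 CPM with BLU9931, 38.8, 35.3 and 32.9 CPM with palbociclib and 23.7, 24.2 and 25.6 CPM with both drugs. In CPM the BLU9931 libraries lay above and the combination libraries below all others, and palbociclib overlapped control. In TPM the combination libraries were again below all others. There the palbociclib libraries (42.0, 38.1 and 39.5 TPM) lay above control (33.3, 31.0 and 35.7 TPM) and overlapped BLU9931 (46.0, 46.7 and 41.6 TPM). Against control, HOXD10 was lower with both drugs by -0.40 ± 0.11 (log2, adjusted p = 0.0174); leaving out control 3, combination 1 or combination 2 ended this call (adjusted p up to 0.0649), as did limma on log2(TPM + 1) (0.0508). With BLU9931 the change was 0.39 ± 0.11 (adjusted p = 0.173), and with palbociclib it did not pass either.

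The interaction asks whether the log2 effect of both drugs differs from the sum of the single effects. It called 1 of 37 HOX genes, HOXD10, lower than that sum by -0.93 ± 0.16 (log2, adjusted p = 0.0144), against 1.59% of all genes called, 1.31% lower and 0.281% higher. The call ended without control 2, BLU9931 1, BLU9931 2, combination 1 or combination 2 (adjusted p up to 0.0534), and with the replicate block (0.064). Without control 1 and palbociclib 3 together it was -0.99 (adjusted p = 0.00218). The share of all genes called in the interaction was 0.694% without BLU9931 1, 4.64% without palbociclib 3 and 10% without control 1 and palbociclib 3 together, where 3 HOX genes were called. The median HOX interaction was -0.28 (log2), with 29 negative and 8 positive values, and that of all genes was -0.015. Within HOXD, 8 of 9 values were negative. HOXD9 had -1.03 ± 0.36 and HOXD11 -0.74 ± 0.32, and neither passed (adjusted p = 0.213 and 0.326). HOXD10 shares part of its span with HOXD11, a gene of the forearm and kidney that was at 11, 16.3 and 18.6 CPM in control, 21.3, 21.6 and 21.1 CPM with BLU9931, 13.9, 14.8 and 9.25 CPM with palbociclib and 10.9, 8.28 and 12.4 CPM with both. The BLU9931 libraries of HOXD11 lay above all others and the other groups overlapped.

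**Figure D5:**
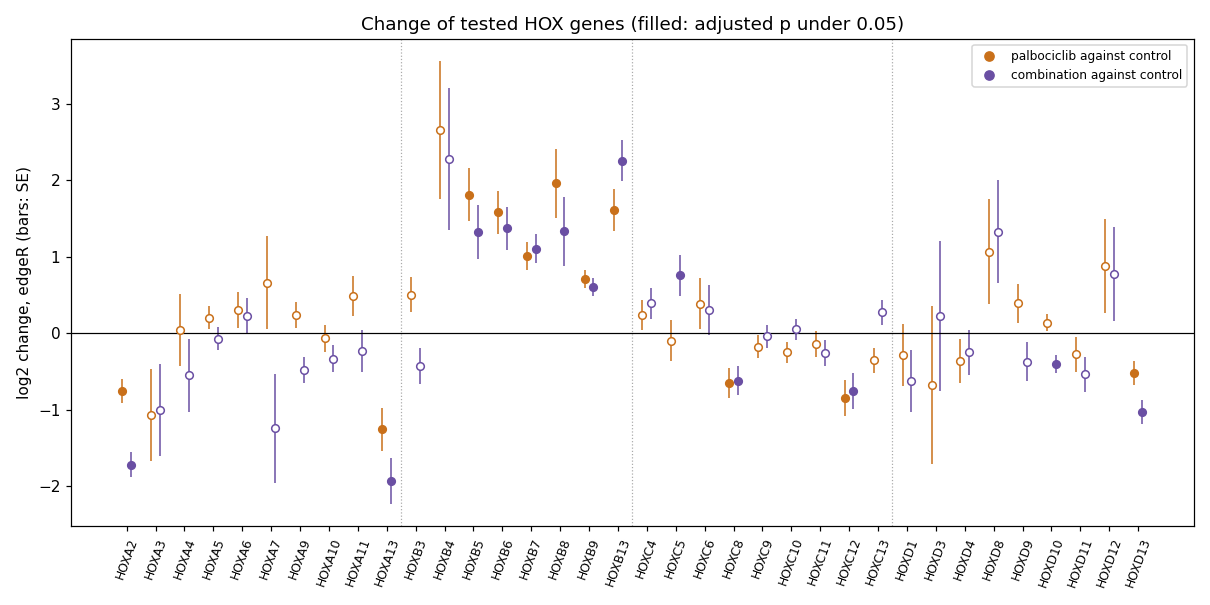
Log2 change of the tested HOX genes shown, from the edgeR fit, with SE bars, for palbociclib against control and for the combination against control; filled points passed an adjusted p of 0.05 and dotted lines separate the clusters. The filled points of HOXB lie between 0.60 and 2.25, and those of the other clusters lie below 0 except HOXC5 (0.75).

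BLU9931 against control called 0 of 37 HOX genes with edgeR, against 0.18% of all genes (0.141% higher and 0.0388% lower). An unadjusted p under 0.05 was found for 6 of the 37 HOX genes and for 3347 of all 20612 genes tested, a like share. DESeq2 and a GC adjustment each called 1, HOXD10 (adjusted p = 0.0245 and 0.0319), with 2.86% and 3.8% of all genes called. The median HOX change was 0.22 (log2), with 27 positive and 10 negative values, and that of all genes was 0.0025. The clusters differed: the median was -0.23 for HOXA (5 positive and 6 negative), 0.14 for HOXB, 0.29 for HOXC and 0.27 for HOXD. Apart from HOXD10 and HOXB13, the BLU9931 libraries lay above control in CPM for HOXB4, HOXB9, HOXC5, HOXC10, HOXC11 (0.53 ± 0.17, adjusted p = 0.205), HOXC12, HOXC13 and HOXD11. They lay below control for HOXA2. The share of all genes without overlap was not computed, so no HOX response is read from this.

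The combination was compared with each single drug to describe what the second drug adds. Against palbociclib, 0 of 37 HOX genes rose and 3 fell, against 0.917% and 2.91% of all genes (3.82% in either direction). Besides HOXA2, these were HOXD10 (-0.54 ± 0.11, adjusted p = 0.0203) and HOXA9. HOXD10 lost this call without palbociclib 1, palbociclib 2 or any 1 of the combination libraries (adjusted p up to 0.102), with the replicate block (0.0716) and in a fit of only the groups compared (0.13). DESeq2 gave 2 rises and 4 falls with 6.44% of all genes called, a GC adjustment 2 rises and 6 falls with 10.9%, and the fit without control 1 and palbociclib 3 together 0 rises and 6 falls with 9.69%. Without palbociclib 1 or any 1 of the combination libraries, 0 rose and 1 fell (2.06% to 2.86% of all genes called). Without palbociclib 2, 1 rose and 1 fell (2.52%). HOXA9 (ENSG00000078399, chromosome 7, 27162435 to 27175180), a gene of blood stem cells and leukaemia that overlaps HOXA10, was at 6.33, 5.16 and 5.86 CPM in control, 4.37, 5.33 and 4.33 CPM with BLU9931, 6.04, 7.87 and 6.51 CPM with palbociclib and 3.58, 4.80 and 3.99 CPM with both. The palbociclib libraries lay above those with both drugs. The fall was -0.72 ± 0.17 (adjusted p = 0.0411) and ended in 11 of 12 fits that left out 1 library (adjusted p up to 0.160), control 1 being the exception, and with limma (up to 0.0871), no filter (0.067), the replicate block (0.0748) and a fit of only the groups compared (0.159).

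Against BLU9931, 5 HOX genes rose and 7 fell with both drugs, against 13.3% and 13.7% of all genes (27% in either direction). The falls numbered 11 without palbociclib 3 (32.2% of all genes called) and 11, with 4 rises, without control 1 and palbociclib 3 together (41.2%). The rises numbered 3 without BLU9931 2, BLU9931 3, combination 1 or combination 3 (19.4% to 20.8% of all genes called). The rises were HOXB6 (1.31 ± 0.28, adjusted p = 0.00505), HOXB7 (1.10 ± 0.18, adjusted p = 0.00110), HOXB8, HOXB9 and HOXB13. HOXB8 (adjusted p = 0.0453) lost its call in 9 of 12 fits that left out 1 library (up to 0.205), all but those without control 1, palbociclib 3 or combination 2. It also lost it without control 1 and palbociclib 3 together (0.0553), with no filter (0.0622) and in a fit of only the groups compared (0.0973). HOXB9 (0.42 ± 0.12, adjusted p = 0.0214) lost it without BLU9931 2, BLU9931 3 or any 1 of the combination libraries (up to 0.113) and with no filter (0.0784). The falls were HOXA2, HOXA13, HOXC11, HOXC12, HOXD10, HOXD11 and HOXD13. HOXD10 fell by 0.79 ± 0.11 (adjusted p = 0.000346) and HOXD11 by 1.02 ± 0.23 (adjusted p = 0.00674) on the log2 scale. HOXC11 (ENSG00000123388, chromosome 12, 53973126 to 53977643), a posterior gene whose span overlaps HOTAIR on the opposite strand, was at 7.78, 9.58 and 11.3 CPM in control, 14.3, 14.2 and 13 CPM with BLU9931, 9.36, 9.76 and 6.91 CPM with palbociclib and 7.43, 8.53 and 7.89 CPM with both. Its BLU9931 libraries lay above all others, and the combination was lower by -0.80 ± 0.17 (adjusted p = 0.00519).

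The remaining tested HOX genes passed in no comparison. Of the HOXA genes these included HOXA3 to HOXA7, HOXA10 and HOXA11. HOXA5, required for airway development in the mouse, was at 10.7 ± 1.15 CPM in control, 8.94 ± 1.41 CPM with BLU9931, 12.3 ± 0.956 CPM with palbociclib and 10.2 ± 0.709 CPM with both drugs. HOXC13, the gene of hair and nails, was at 10.3 ± 0.793, 12.5 ± 1.29, 8.06 ± 1.35 and 12.4 ± 1.70 CPM in the same order, and its step from palbociclib to the combination (0.62 ± 0.16) did not pass (adjusted p = 0.0612). HOXC4, HOXC6, HOXC9, HOXC10, HOXD1, HOXD3, HOXD4, HOXD8, HOXD9 and HOXD12 did not pass either, nor did HOXB3 and HOXB4, described above. HOXD3 ranged from 0.112 to 1.67 CPM within control. The HOXD share of HOX TPM was 23.9 ± 2.19% in control, 25.9 ± 0.665% with BLU9931, 21.8 ± 1.61% with palbociclib and 16.8 ± 0.275% with both drugs, and the combination libraries (16.5 to 17.1%) lay below all others.

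Among genes that act with HOX proteins or on the clusters, the DNA-binding partners of the TALE family split. Of 9 tested, 2 rose and 1 fell with palbociclib (20.6% of all genes called), and 3 rose and 1 fell with both drugs (31.7%). PBX3 was at 3.95 ± 0.370 CPM in control, 2.15 ± 0.334 CPM with palbociclib and 0.715 ± 0.139 CPM with both drugs (SD, n = 3), a fall of -2.47 ± 0.27 (adjusted p = 4.21e-05) for both.

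Of 11 relatives of the HOX genes outside the clusters, 4 passed the filter on low counts. GSX1 and CDX2 rose with palbociclib and with both drugs. GSX1, a ParaHox gene of the developing brain, went from 2.55 ± 0.920 CPM in control to 15.0 ± 6.69 CPM with palbociclib and 40.9 ± 5.86 CPM with both, where its log2 rise was 4.0 ± 0.37 (adjusted p = 1.29e-05). CDX2, an intestinal gene that activates HOX genes in the embryo, was at 0.378 ± 0.232, 2.10 ± 1.15 and 3.28 ± 0.491 CPM in the same groups (3.07 ± 0.52, adjusted p = 0.000961, for both drugs).

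Of 14 tested noncoding RNAs of the clusters, 3 rose and 0 fell with palbociclib (20.6% of all genes called), and 1 rose and 1 fell with both drugs (31.7%). HOXB-AS3, which lies opposite HOXB3, HOXB4, HOXB5 and HOXB6, was at 0.207 ± 0.0202 CPM in control, 0.523 ± 0.230 CPM with BLU9931, 0.548 ± 0.0994 CPM with palbociclib and 0.529 ± 0.127 CPM with both. HOXB-AS3 is a low-count gene, with a mean count of 12.25 over the 12 libraries. It rose by 1.38 ± 0.40 (log2, adjusted p = 0.0322) with palbociclib, and the change of 1.31 ± 0.41 with BLU9931 did not pass (adjusted p = 0.199). HOTAIRM1, in the HOXA cluster, was at 11.7 ± 0.981 CPM in control and 20.2 ± 2.05 CPM with palbociclib (0.78 ± 0.15, adjusted p = 0.00359), and at 12.4 ± 1.11 CPM with both drugs, lower than with palbociclib (-0.70 ± 0.15, adjusted p = 0.0222). HOTAIR, opposite HOXC11, fell with both drugs from 17.4 ± 1.05 to 13.5 ± 0.104 CPM (-0.37 ± 0.12, adjusted p = 0.0336).

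Of 18 tested retinoic acid genes, 5 rose and 2 fell with palbociclib (20.6% of all genes called), and 7 rose and 4 fell with both drugs (31.7%). ALDH1A1, which makes retinoic acid, went from 34.3 ± 5.64 CPM in control to 94.1 ± 14.1 CPM with palbociclib and 145 ± 17.1 CPM with both (2.08 ± 0.16, adjusted p = 2.74e-06, for both drugs). DHRS3, which reduces retinal and is itself induced by retinoic acid, went from 11.3 ± 1.88 to 40.6 ± 2.49 CPM with both. The binding protein gene CRABP1 fell with palbociclib (-1.99 ± 0.38, adjusted p = 0.00336). Of 29 polycomb and trithorax regulators, 2 rose and 5 fell with palbociclib, and 3 rose and 7 fell with both drugs, shares near those of all genes (20.6% and 31.7%). EZH2, the methyltransferase of polycomb complex PRC2, was at 88.5 ± 6.69 CPM in control, 44.6 ± 7.30 CPM with palbociclib and 26.6 ± 1.42 CPM with both (-1.74 ± 0.13, adjusted p = 2.58e-06, for both). CTCF, the insulator protein that borders HOX domains, fell with palbociclib by 0.70 ± 0.10 (adjusted p = 0.000533) on the log2 scale. KMT2A, the trithorax methyltransferase, was at 308 ± 18.4 CPM in control and 93.9 ± 48.3 CPM with palbociclib, with 148, 76.5 and 56.8 CPM in its libraries. The demethylase gene KDM6B rose from 28.0 ± 8.97 to 69.0 ± 28.6 CPM (1.3 ± 0.31, adjusted p = 0.0127). Its palbociclib libraries were at 91.8, 78.3 and 36.9 CPM, and the last, palbociclib 3, lay inside the control range (21.5 to 38.3 CPM).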

How the data were processed

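mRNA libraries of H520 cells were measured in 4 groups of 3 libraries. The deposited table holds counts per gene, which are whole numbers and not normalised, and the authors' TPM and FPKM values, all 3 named per the file headers. Tools listed without roles in the submitters' processing notes are StringTie 1.3.3b, HISAT2 2.0, Trimmomatic 0.36 and bedtools 2.26.0. Those notes name a mouse build, although the gene IDs are human. GENCODE 29 holds 57836 of the 58174 IDs and places 38 of the 39 HOX genes at the same start and end, and positions are given on GRCh38. The annotation, counting mode and use of strand are not given in the sources used here, so reads of overlapping and antisense genes cannot be separated. Columns of other samples numbered 0.

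Tests on the deposited counts used edgeR 4.0.16 under R 4.3.3. Genes passing filterByExpr (20612, 37 of them HOX) were scaled by TMM and fitted in 1 robust quasi-likelihood model of the 12 libraries with a term per group (8 residual degrees of freedom, common dispersion 0.0518). Each of 6 comparisons used the two-sided F-test with Benjamini-Hochberg adjustment over all genes tested and a threshold of 0.05. CPM are counts relative to the TMM-scaled library total, given as mean ± SD, and log2 changes carry the SE of the fit. Library totals were 21.7 M to 35.8 M (M, mega), and counting error is smaller than the spread between replicates (chi-square per degree of freedom 20.4 to 101). The fit was tested on simulated counts. Alternatives used DESeq2 1.42.0 and limma 3.58.1, and tables and plots Python 3.11.15 with pandas 2.3.3 and matplotlib 3.10.9. Transcript length was implied from count over FPKM. Promoters were searched on both strands.

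The members and gene lists were chosen with earlier results of these data known. Genes described library by library are the members past the threshold in any comparison and the 5 with the highest mean TPM; of the other lists, genes past the threshold, those with the smallest adjusted p first. Some single genes are not reported here; they stay in the fits, counts and sums.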

Additional observations from a re-analysis of the deposited data

Results flagged for a closer look

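HOXD10 differed between the effect of palbociclib without and with BLU9931. The interaction, tested with edgeR's quasi-likelihood test over 20612 genes, was -0.93 ± 0.16 (log2, SE, adjusted p = 0.0144), with 1.59% of all genes called. The call was lost in 5 of 12 fits that left out 1 library (adjusted p up to 0.0534) and with the replicate block (0.064). HOXD10 went from a mean of 32.4 CPM in control to 35.6 CPM with palbociclib, and from 42.5 CPM with BLU9931 to 24.5 CPM with both drugs. All 3 combination libraries lay below all 3 BLU9931 libraries. The cause was not tested.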

How the results depend on the processing

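Each result for HOX genes was recomputed under up to 22 alternatives, and those for the genes of the other lists were not. No result reversed, and of the values for single genes 758 kept their direction and side of the threshold, while 121 kept their direction but lost the call. These are values of genes called in the main fit, so calls gained under an alternative are not among them. Of the counts of called HOX genes and the cluster shares, 134 stayed near the main value and 21 moved. DESeq2 called 1 HOX gene for BLU9931 against control in place of 0 (2.86% of all genes called). For the combination against palbociclib it called 6 in place of 3 (6.44%). A GC adjustment called 1, 8 and, for the interaction, 2 in place of 1 (3.8%, 10.9% and 8.53% of all genes called). GC adjustment with the replicate block called 7 for the combination against palbociclib (8.83%). A fit of only the groups compared has fewer libraries behind its spread. It called 6 (6 rises and 0 falls) for palbociclib against control in place of 11 (9.48% of all genes called). For the combination against palbociclib it called 0 (1.54%). Without control 1 and palbociclib 3 together, 6 were called for the combination against palbociclib and 3 for the interaction, while the share of all genes called went from 3.82% to 9.69% and from 1.59% to 10%. Leaving out 1 library at a time gave 1 to 4 for the combination against palbociclib (2.06% to 4.45% of all genes called). For the interaction it gave 0 to 1 (0.694% to 4.64%). The cause was not tested. Over all genes, BLU9931 against control had 37 calls with edgeR, 590 with DESeq2, 784 after the GC adjustment, 396 without palbociclib 3 and 1 without BLU9931 1. Replicate numbers did not pair the libraries: deviations of same-numbered libraries correlated from -0.364 to 0.168, and 2 of 12 libraries correlated best with their own number. With the replicate block, 1 was called for the combination against palbociclib (2.34% of all genes called) and 0 for the interaction (0.689%). Means under 1 TPM, in 8 of the 37 tested HOX genes, limit what can be detected.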
